A study of Mus musculus with 9 samples.

Results

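Compound 10, a small molecule that the series describes as an inhibitor of NFAT:AP-1, was compared with its solvent in CD4+ T cells activated with PMA and ionomycin. The libraries were chosen by their titles, and 5 of the 9 RNA sequencing libraries of the series belong to this comparison: 2 of stimulated cells in vehicle (DMSO) and 3 of stimulated cells in compound 10. All were made from total CD4+ T cells of the spleen of C57BL/6 mice, an inbred laboratory strain, purified by an untouched method that leaves the CD4+ cells free of antibody. Cells of both groups stood for 1 h in DMSO or in compound 10 at 12.5 µM and were then given PMA at 10 nM together with ionomycin at 1 µM for 2 h. The remaining 4 libraries, 2 of unstimulated vehicle cells and 2 of unstimulated cells in compound 10, entered the model to help estimate the spread, and their own contrast is set beside the stimulated one where it bears on it. The sources used here state no age, sex or pooling of the mice, and no label ties a library to an animal or culture, so the p-values reflect the variation among these libraries, which could be technical.

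NFAT transcription factors sit phosphorylated in the cytoplasm of resting T cells, and a rise in calcium activates the phosphatase calcineurin, which frees them to enter the nucleus. AP-1 is a dimer of Fos and Jun proteins made and activated through protein kinase C, Ras and the MAP kinases. In activated T cells the pair binds side by side on composite DNA sites, best known from the genes of interleukin 2 and other cytokines. PMA stands in for diacylglycerol and ionomycin lets calcium in, so together they bypass the T cell receptor and start both arms of this response.

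Estimated counts per library were 21852830 and 19590608 in vehicle and ran from 13886789 to 15693035 in compound 10. Ribosomal RNA genes held 3.57% and 13.8% of them in vehicle and from 1.78% to 9.66% in compound 10. On the first 3 principal components (41.3%, 22.3% and 8.94% of the variance) the libraries parted by stimulation, then by compound, and then within the groups, where those numbered 1 lay below those numbered 2 in each of the 4. Summed levels in TPM, a unit of transcript abundance corrected for length, of the defining CD4 T cell markers were 2417 to 3054 in vehicle and 2618 to 3042 in compound 10. Of these 10 markers 4 were higher, by a log2 fold change of 0.86 (SE 0.21) for Lck, 0.79 (SE 0.20) for Cd4, 0.77 (SE 0.18) for Cd3g and 0.67 (SE 0.22) for Cd3e. The lower marker was Cd247, at -0.73 (SE 0.17), and none was called without vehicle library 2 or by limma on log2(TPM + 1). Cd3e missed the threshold under 12 of the 19 alternatives, among them each library left out except vehicle library 1 and compound library 2. B cell markers were also present in both groups (1722 to 3479 and 2217 to 3183 TPM), while CD8 markers summed to 4.53 to 4.73 and 3.05 to 3.68 TPM. Markers of natural killer cells were higher in every compound 10 library (43.2 to 65.0 TPM) than in either vehicle library (26.5 to 41.7 TPM), and 4 of their 9 tested members rose (11.7% of all genes tested did), or 2 without vehicle library 2 or compound library 3. The receptor gene Klrb1c and the granzyme gene Gzma were among them, at 3.72 (SE 0.61, adjusted p = 0.00106) and 1.51 (SE 0.29, adjusted p = 0.00306). Klrb1c stood at only 0.122 and 0.203 TPM in vehicle and 1.62, 1.53 and 1.74 TPM in compound 10. Nkg7, the largest part of the sum in each library, overlapped between the groups (26.5 and 11.7 TPM against 37.1, 36.1 and 18.3 TPM). Eomes held the 1 negative estimate of the list, at -1.09 (SE 0.39, adjusted p = 0.0636), and was not called. Myeloid markers stood at 15.7 to 20.5 and 20.9 to 25.9 TPM, Retnlg of the neutrophil list was at 0 in all 5 libraries, and no tested B cell, CD8, myeloid, neutrophil or erythroid marker was called. In bulk RNA a smaller number of cells of a type and less RNA per cell cannot be told apart.

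Of 14011 genes tested, 3234 (23.1%) differed between compound 10 and vehicle in stimulated cells at an adjusted p under 0.05, of which 1639 (11.7% of the genes tested) were higher and 1595 (11.4%) lower. At least a 2-fold change was seen for 1039 of the higher and 791 of the lower genes, and at least a 4-fold change for 192 and 95. The median log2 fold change was 1.17 among the higher and -0.99 among the lower genes, against 0.0019 over all genes. In 3231 of the 3234 called genes the 3 compound 10 libraries lay wholly above or below the 2 vehicle libraries, but this was so for 47.3% of all genes tested. The counts rest on the vehicle group in particular: 876 genes were higher and 1097 lower without vehicle library 2, and 1189 and 975 without vehicle library 1. By limma on log2(TPM + 1) the counts were 557 and 638.

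**Figure D1:**
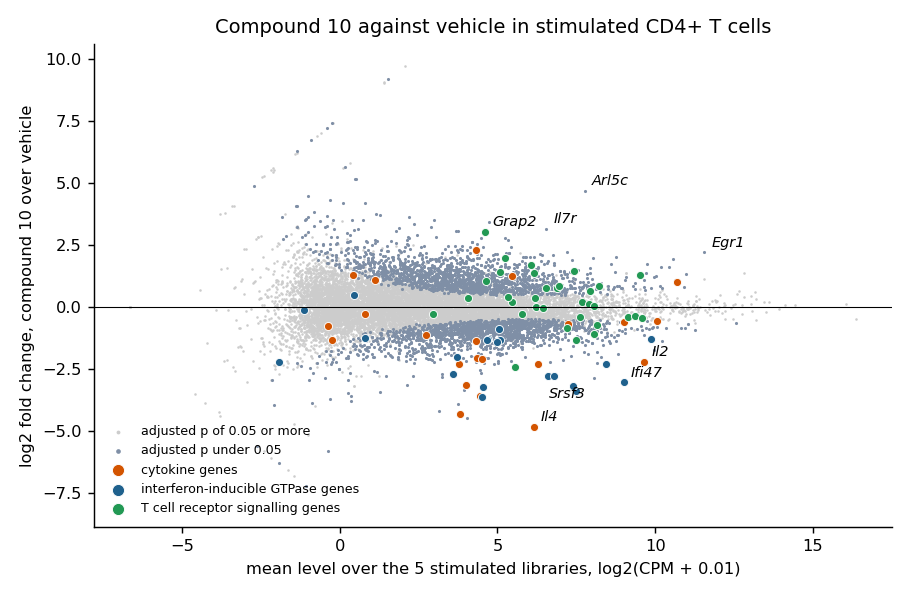
Each point is 1 of the genes tested, with the mean level over the 5 stimulated libraries as log2(CPM + 0.01) on the x axis and the log2 fold change of compound 10 over vehicle on the y axis. Cytokine and interferon-inducible GTPase genes lie mostly below 0, with Il4 at -4.81, while T cell receptor signalling genes lie on both sides and Arl5c stands at 4.70.

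Levels below are in CPM, the count of a gene relative to its library's total after scaling by TMM, given for vehicle libraries 1 and 2 and then for compound 10 libraries 1, 2 and 3, and changes are log2 fold changes of compound 10 over vehicle with their standard error (SE).

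Effector cytokine genes were lower as a group. Of 22 tested, 10 fell and 2 rose, with a median log2 fold change of -1.21. Il4, which encodes the signature cytokine of type 2 help, was read at 158 and 178 CPM in vehicle and 7.21, 6.45 and 4.28 CPM in compound 10. Every compound 10 library thus lay far below both vehicle libraries, and the log2 fold change was -4.81 (SE 0.26, adjusted p = 4.33e-06). Il13, its neighbour on chromosome 11, went from 66.8 and 30.1 CPM to 5.05, 3.32 and 3.93 CPM, a change of -3.57 (SE 0.38, adjusted p = 0.000141). Il5, the eosinophil growth factor of the same gene cluster, was at 34.1 and 30.8 CPM and at 1.52, 0.195 and 3.40 CPM, a change of -4.30 (SE 0.77, adjusted p = 0.00706).

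The interleukin 17 genes, whose products recruit neutrophils, moved the same way. Il17a was at 151 and 147 CPM in vehicle and 27.8, 33.2 and 31.8 CPM in compound 10, a change of -2.27 (SE 0.16, adjusted p = 1.16e-05). Il17f was at 40.6 and 28.4 CPM and 3.69, 3.78 and 4.36 CPM, a change of -3.13 (SE 0.23, adjusted p = 1.3e-05). In both genes the spread within each group was small beside the gap between the groups.

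Il2, which encodes the main T cell growth factor, fell from 1605 and 1419.7 CPM to 327, 240.5 and 429 CPM, a change of -2.19 (SE 0.24, adjusted p = 0.000107). Its mRNA remained well detected in all 3 compound 10 libraries. The receptor chain that Il2 signalling is known to sustain, Il2ra (CD25), fell from 192 and 185 CPM to 47.0, 33.0 and 44.6 CPM, a change of -2.18 (SE 0.21, adjusted p = 5.47e-05). Il21, a helper cytokine for B cells, changed by -2.28 (SE 0.30), Lif by -2.06 (SE 0.32) and Il10, an anti-inflammatory cytokine, by -2.02 (SE 0.38). Csf2 (GM-CSF) also passed at -1.35 (SE 0.37, adjusted p = 0.024), but its adjusted p was 0.152 without vehicle library 1 and 0.0608 without vehicle library 2.

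A few cytokine genes went against the group. Il16, which encodes a chemoattractant for CD4+ cells, was at 6.53 and 5.40 CPM in vehicle and 36.4, 26.8 and 25.5 CPM in compound 10, a change of 2.31 (SE 0.22, adjusted p = 4.51e-05). Lta (lymphotoxin) rose from 28.9 and 19.0 CPM to 52.97, 61.4 and 56.9 CPM, a change of 1.25 (SE 0.21, adjusted p = 0.00121). Tnf, its neighbour in the genome, had a higher reading in every compound 10 library, at 679 and 1368 CPM and 2049, 1687 and 2529.6 CPM, but the vehicle libraries lay far apart and it did not pass, at 1.03 (SE 0.41, adjusted p = 0.106), though it did under 5 of the 19 alternatives, DESeq2 among them. Among 9 tested chemokine genes 3 fell and none rose. Xcl1 (lymphotactin) was at 346 and 237 CPM and 102, 55.4 and 69.6 CPM, a change of -1.94 (SE 0.26, adjusted p = 0.000352), Ccl1 changed by -4.19 (SE 0.52, adjusted p = 0.000375), and the interferon-induced Cxcl10 changed by -1.69 (SE 0.28, adjusted p = 0.00152). Summed natural killer cell markers were higher under compound 10, as given above, and their part in the cytokine values was not tested.

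**Figure D2:**
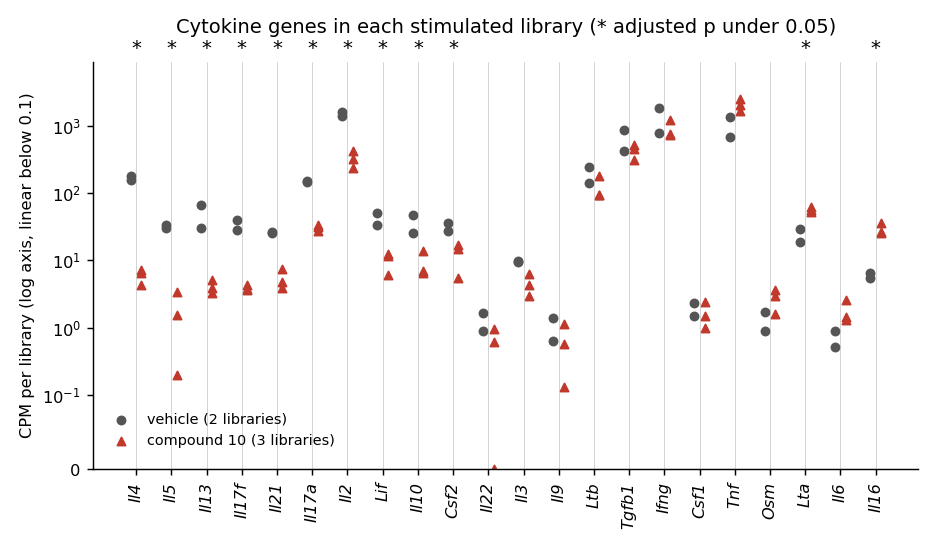
Levels of the 22 tested cytokine genes, ordered by log2 fold change, in CPM per library on a log axis (linear below 0.1), with circles for the 2 vehicle and triangles for the 3 compound 10 libraries; an asterisk marks an adjusted p under 0.05. From Il4 to Csf2 the triangles lie below the circles, and for Lta and Il16 they lie above.

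The promoters of Il4, Il2 and Il13 are shown as those of lower cytokine genes at which NFAT is known to act. Each line is the 250 bases before the RefSeq start on the gene's own strand, read 5′ to 3′ in GRCm38.p6, with every NFAT core (GGAAA on either strand) in capitals: Il4 at chr11:53618666-53618915 (minus strand), Il2 at chr3:37125955-37126204 (minus strand) and Il13 at chr11:53634703-53634952 (minus strand).
Il4: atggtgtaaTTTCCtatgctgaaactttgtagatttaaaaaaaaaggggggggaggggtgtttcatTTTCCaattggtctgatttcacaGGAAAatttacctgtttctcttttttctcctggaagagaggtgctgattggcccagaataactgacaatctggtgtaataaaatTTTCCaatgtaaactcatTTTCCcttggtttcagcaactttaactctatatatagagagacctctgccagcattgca
Il2: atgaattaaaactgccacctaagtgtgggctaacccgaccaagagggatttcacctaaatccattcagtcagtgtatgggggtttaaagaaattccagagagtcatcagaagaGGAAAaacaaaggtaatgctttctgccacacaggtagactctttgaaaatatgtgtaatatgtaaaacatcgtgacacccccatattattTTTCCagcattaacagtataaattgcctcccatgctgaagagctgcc
Il13: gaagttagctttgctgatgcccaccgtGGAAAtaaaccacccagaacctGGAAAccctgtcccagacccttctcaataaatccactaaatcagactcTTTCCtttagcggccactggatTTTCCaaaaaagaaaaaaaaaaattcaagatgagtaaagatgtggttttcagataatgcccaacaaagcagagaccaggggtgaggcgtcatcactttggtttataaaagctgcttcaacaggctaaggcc
The core occurs 5 times in the Il4, 2 times in the Il2 and 4 times in the Il13 window. It is a short word, and 55.6% of all 32851 RefSeq promoter windows of this length hold it. Among promoters of the genes that fell the share was 58.8%, among those that rose 51.2%, and among tested genes that were not called 53.7%. Of 10 windows found for 9 of the lower cytokine genes, 8 held the core, 2 held an AP-1 word (TGANTCA, either strand) and 0 held a core within 12 bases of one. That pair stood in only 0.654% of all windows and 0.459% of those of lower genes, so its absence from 10 windows decides nothing. Variants of the AP-1 word were not searched, and a pair that holds one would be missed. AP-1 words stood in 4.46% of the windows of lower genes, 3.84% of those of higher genes and 4.30% of those of genes not called. A match says only that the letters are there.

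Interferon-inducible GTPases were the list with the lowest median. These proteins, the guanylate-binding proteins (GBP) and the immunity-related GTPases (IRG), are induced by interferons and disrupt vacuoles that hold intracellular microbes. Of 20 tested, 17 fell and none rose, with a median log2 fold change of -2.10. Ifi47 was at 989 and 1172 CPM in vehicle and 142, 126 and 136 CPM in compound 10, a change of -3.01 (SE 0.18, adjusted p = 4.4e-06). Igtp fell from 678 and 655 CPM to 142, 171 and 93.1 CPM, a change of -2.30 (SE 0.25, adjusted p = 0.000112), and Irgm1, which guards the cell's own membranes, from 1439 and 1405 CPM to 563, 627 and 595 CPM, a change of -1.26 (SE 0.20, adjusted p = 0.000901). In all 3 genes every compound 10 library lay below both vehicle libraries.

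Among the guanylate-binding proteins, Gbp2 was at 338 and 453 CPM in vehicle and 58.3, 32.8 and 22.3 CPM in compound 10, a change of -3.38 (SE 0.36, adjusted p = 0.000254). Gbp4 and Gbp5 changed by -2.78 (SE 0.25) and -2.69 (SE 0.29), and Gbp3, Gbp7, Gbp8 and Gbp9 by between -1.99 and -1.26. Tgtp1 and Tgtp2, IRG genes at -3.17 (SE 0.23) and -2.77 (SE 0.23), are near-identical copies whose reads the counting may have split, as it may for Gm12250 and the GBP genes. Iigp1 and Irgm2 changed by -3.62 (SE 0.44) and -1.39 (SE 0.24). The calls of Gbp6 (-0.88) and Gm4841 (-1.22) were the weakest, with adjusted p-values of 0.423 and 0.0928 without vehicle library 2. On leaving out 1 of the 9 libraries in turn Gm4841 missed the threshold whichever was left out, and Gbp6 did so except without vehicle library 1 or compound library 1. Gbp10, Gbp11 and Gm4951 were not called. The fall was also seen without stimulation: in unstimulated cells, where 2.91% of all genes tested were lower and 4.45% higher, 14 of the 20 were lower, with a median of -2.04. The test of the difference between the states, which passed for 1.03% of all genes, passed for 0 of them in edgeR, with 5 at an unadjusted p under 0.05 and 2 called by DESeq2.

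Promoters of 5 of these genes are shown for the interferon-stimulated response element (ISRE; GAAANNGAAA on either strand, in capitals), again as the 250 bases before the RefSeq start in GRCm38.p6: Gbp2 at chr3:142620413-142620662 (plus strand), Gbp5 at chr3:142496684-142496933 (plus strand), Igtp at chr11:58199306-58199555 (plus strand), Irgm1 at chr11:48871421-48871670 (minus strand, 2 overlapping matches) and Tgtp2 at chr11:49064213-49064462 (minus strand).
Gbp2: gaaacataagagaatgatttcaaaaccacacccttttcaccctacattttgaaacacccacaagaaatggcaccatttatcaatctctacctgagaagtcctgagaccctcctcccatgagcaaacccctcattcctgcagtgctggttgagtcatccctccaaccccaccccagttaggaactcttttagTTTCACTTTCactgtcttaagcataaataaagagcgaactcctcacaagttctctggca
Gbp5: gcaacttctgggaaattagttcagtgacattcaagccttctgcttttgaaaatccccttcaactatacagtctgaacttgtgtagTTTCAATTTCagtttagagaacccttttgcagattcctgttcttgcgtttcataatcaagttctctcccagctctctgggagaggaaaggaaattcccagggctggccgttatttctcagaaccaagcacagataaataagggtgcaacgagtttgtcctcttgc
Igtp: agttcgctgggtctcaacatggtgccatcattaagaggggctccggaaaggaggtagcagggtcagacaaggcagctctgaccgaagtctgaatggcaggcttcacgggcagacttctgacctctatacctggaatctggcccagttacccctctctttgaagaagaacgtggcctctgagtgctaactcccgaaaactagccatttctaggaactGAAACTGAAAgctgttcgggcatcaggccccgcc
Irgm1: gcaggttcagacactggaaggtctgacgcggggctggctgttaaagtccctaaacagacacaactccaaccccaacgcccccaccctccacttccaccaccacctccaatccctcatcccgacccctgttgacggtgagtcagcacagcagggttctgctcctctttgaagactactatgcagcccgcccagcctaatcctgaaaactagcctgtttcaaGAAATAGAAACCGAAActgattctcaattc
Tgtp2: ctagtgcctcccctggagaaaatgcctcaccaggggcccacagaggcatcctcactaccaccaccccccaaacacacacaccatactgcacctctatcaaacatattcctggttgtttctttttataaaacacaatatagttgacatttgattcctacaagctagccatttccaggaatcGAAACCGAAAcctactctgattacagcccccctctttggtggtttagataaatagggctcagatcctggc
Of 12 windows found for 11 of the lower GTPase genes, 10 held this word and 7 held a GAS word (TTCNNNGAA), the site bound by STAT dimers. Over all promoter windows the shares were 2.98% and 7.02%, and over the windows of all genes that fell 2.82% and 8.20%.

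Factors that are known to act in this response also moved. Of 10 interferon regulatory factor genes 4 were lower and 1 higher, with a median of -0.57. Of 19 STAT and STAT feedback genes 5 were lower and 3 higher, with a median of 0.02. By limma on log2(TPM + 1) 2 of the former were lower and 0 higher, and 3 of the latter lower and 2 higher. Irf8, an interferon regulatory factor, was at 509 and 580.1 CPM in vehicle and 118, 111 and 114 CPM in compound 10, a change of -2.25 (SE 0.17, adjusted p = 1.3e-05). Stat2 went the other way, from 5.22 and 7.07 CPM to 29.8, 20.8 and 17.5 CPM, a change of 1.89 (SE 0.28, adjusted p = 0.000545), and Ifngr1, a chain of the interferon gamma receptor, rose from 41.5 and 48.7 CPM to 153, 155 and 156 CPM, a change of 1.78 (SE 0.18, adjusted p = 6.68e-05). In stimulated cells the 37 other interferon-stimulated genes tested did not share the fall of the GTPases. Of these 6 were lower (3 without compound library 3 and 1 by limma on log2(TPM + 1)) and 4 higher. Their median was 0.14, and 0.06 without vehicle library 2. In unstimulated cells 6 of the 37 were lower (2.91% of all genes tested were) and 0 higher, with a median of -0.47. The difference between the states was called for 5 of the 37, against 1.03% of all genes. Of the Ifi200 family, which includes DNA sensors, Ifi208 and Ifi206 rose by 1.62 (SE 0.24) and 1.46 (SE 0.27), Ifi203 fell, at -1.57 (SE 0.31, adjusted p = 0.00378), and Ifi209 was not called at 0.14 (SE 0.18). Without vehicle library 2 Ifi203 stood at -0.82 and did not pass (adjusted p = 0.063). The growth regulators Slfn1 and Slfn2 of the Schlafen family changed by -1.85 (SE 0.26) and -1.51 (SE 0.19).

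RNA processing genes fell widely. SR proteins are splicing factors that bind exons and recruit the spliceosome, and 8 of the 13 tested were lower and none higher, with a median of -1.21. Srsf3 was at 479 and 614 CPM in vehicle and 87.0, 56.6 and 83.5 CPM in compound 10, a change of -2.85 (SE 0.23, adjusted p = 2.03e-05). Srsf6 was at 251 and 255 CPM and 68.0, 53.2 and 52.5 CPM, a change of -2.13 (SE 0.18, adjusted p = 2.5e-05), and Srsf1 at 97.5 and 116 CPM and 26.6, 23.3 and 30.5 CPM, a change of -1.99 (SE 0.17, adjusted p = 2.5e-05). No compound 10 library reached the vehicle range in any of the 3. Tra2a (-2.14, SE 0.22), Tra2b (-1.32, SE 0.18), Srsf5 (-1.25, SE 0.20), Srsf7 (-1.21, SE 0.24) and Srsf2 (-0.86, SE 0.19) fell as well, and the remaining 5 were not called. In unstimulated cells 8 members were lower (median -0.89), and the difference between the states passed for 0 in edgeR and in DESeq2, with 2 at an unadjusted p under 0.05.

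Among the hnRNP genes, whose proteins coat nascent RNA, 9 of 26 were lower (5 without vehicle library 2) and 1 higher. Hnrnpa2b1 fell from 1949 and 1444 CPM to 424, 565 and 565 CPM, a change of -1.71 (SE 0.21, adjusted p = 0.000213). Hnrnpu, a scaffold protein of chromatin and RNA, was at 595 and 622 CPM and 227, 225 and 220.2 CPM, a change of -1.44 (SE 0.16, adjusted p = 0.000118). Syncrip and Hnrnpm changed by -1.37 (SE 0.15) and -1.42 (SE 0.18). Of 44 core spliceosome genes 22 were lower and 1, Lsm4, was higher, with a median of -0.56. Lower members included Prpf3 (-1.36, SE 0.17) of the U4/U6 particle, Plrg1 (-1.18, SE 0.17), Lsm3 (-1.20, SE 0.17) and Snrpd1 (-0.94, SE 0.15). That count was 14 without vehicle library 1 and 9 by limma on log2(TPM + 1). Of 8 splicing kinase genes, most of them CLK and SRPK kinases that phosphorylate SR proteins, none was lower and 1, Srpk2, was higher at 1.07 (SE 0.18), with an adjusted p of 0.0899 by limma on log2(TPM + 1). Under 5 of the 19 alternatives, DESeq2 among them, 1 member was lower.

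Many genes for making ribosomes fell, whereas ribosomal protein genes were not called. Ribosome biogenesis genes encode RNA polymerase I and the factors that process ribosomal RNA in the nucleolus. Of 62 tested, 36 were lower and 2 higher, with a median of -0.71 and negative estimates in 58. Polr1b, a core subunit of RNA polymerase I, was at 24.5 and 30.8 CPM in vehicle and 5.53, 7.03 and 7.42 CPM in compound 10, a change of -2.05 (SE 0.24, adjusted p = 0.000143). Fbl, the methyltransferase fibrillarin, fell from 205 and 166 CPM to 74.5, 78.8 and 84.1 CPM, a change of -1.23 (SE 0.16, adjusted p = 0.00026). Pes1, which acts in maturation of the large subunit, fell from 73.2 and 73.1 CPM to 25.9, 28.6 and 26.4 CPM, a change of -1.44 (SE 0.15, adjusted p = 8.04e-05). Bysl (-1.85, SE 0.19), Noc4l (-1.67, SE 0.16), Gnl2 (-1.59, SE 0.18), Wdr75 (-1.50, SE 0.17) and Mybbp1a (-1.60, SE 0.27) were among the others. By limma on log2(TPM + 1) the lower count was 19.

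In unstimulated cells the same list had a median of -0.06, with 1 member higher and none lower, and the difference between the states passed for 7 members. For Polr1b the unstimulated change was 0.24 (SE 0.27) and the difference -2.29 (SE 0.36, adjusted p = 0.0139), and for Pes1 they were -0.07 (SE 0.16) and -1.37 (SE 0.22, adjusted p = 0.015). None of 78 cytosolic ribosomal protein genes was called by edgeR (2 had an unadjusted p under 0.05, and DESeq2 called 1), and their median was 0.01. The Myc gene, a known driver of ribosome biogenesis, was at 1459.6 and 1232 CPM and 781, 1132 and 949 CPM and did not pass, at -0.50 (SE 0.22, adjusted p = 0.126), though it did without compound library 2 (adjusted p = 0.044).

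Other genes of protein synthesis were lower too. Cytosolic aminoacyl-tRNA synthetases load amino acids onto tRNA, and 14 of 22 were lower against 2 higher, with a median of -0.81 (unstimulated -0.30, 1 lower). Cars, the cysteinyl enzyme, was at 69.7 and 56.4 CPM in vehicle and 20.1, 14.9 and 16.4 CPM in compound 10, a change of -1.88 (SE 0.21, adjusted p = 0.000123). Tars (-1.59, SE 0.21), Iars (-1.42, SE 0.20), Mars (-1.41, SE 0.22), Yars (-1.39, SE 0.20) and Farsa (-1.35, SE 0.18) also fell. Of 40 initiation factor genes 16 were lower and 2 higher, but only 5 were lower without vehicle library 1 and 2 by limma on log2(TPM + 1). The clearest were Eif3c, a subunit of the scaffold eIF3, at -1.18 (SE 0.15, adjusted p = 0.000305), and in the other direction Eif5, at 1082 and 1010.3 CPM and 2475, 2919 and 2612 CPM, a change of 1.35 (SE 0.21, adjusted p = 0.000761). The arginine transporter Slc7a1 changed by -1.20 (SE 0.17), and the other 12 amino acid transporter genes tested were not called.

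The proteasome, which degrades ubiquitin-tagged proteins, was lower as well. Of 35 subunit genes 22 were lower and none higher, with a median of -0.70 (unstimulated -0.37, 5 lower). Psma4 of the core particle was at 111 and 113 CPM and 44.4, 40.1 and 43.0 CPM, a change of -1.40 (SE 0.15, adjusted p = 8.74e-05). Psmc2, an ATPase of the cap, was at 99.9 and 90.6 CPM and 35.6, 38.8 and 36.1 CPM, a change of -1.37 (SE 0.15, adjusted p = 0.000104). By limma on log2(TPM + 1) the lower count was 11. Among 40 chaperone genes 12 were lower and 4 higher. By limma on log2(TPM + 1) 5 were lower and 1 higher, and 2 were higher without compound library 1. The prefoldin subunit Pfdn6 changed by -2.19 (SE 0.24, adjusted p = 0.000112) and the chaperonin subunit Cct6a by -1.23 (SE 0.17). Dnajb1, a partner of Hsp70, rose by 1.64 (SE 0.26).

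**Figure D3:**
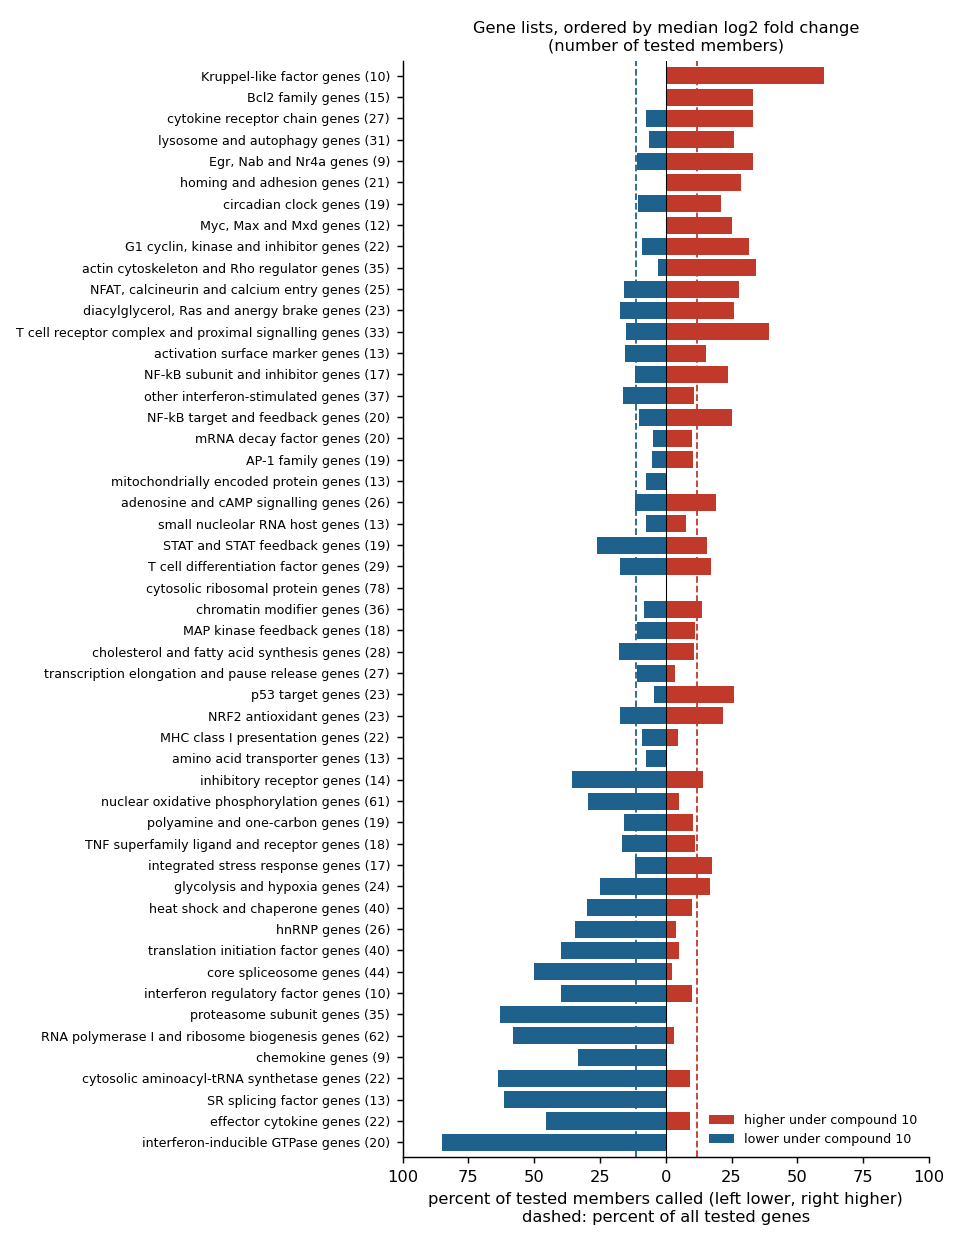
Percent of the tested members of each drawn list that were higher (right, red) or lower (left, blue) under compound 10 in stimulated cells. Lists are ordered by median log2 fold change, with dashed lines at the shares of all genes, 11.7% and 11.4%. Cell marker lists are not drawn, nor are the Gimap GTPase (8 tested), Schlafen (6) and splicing kinase (8) lists, which had fewer tested members than those drawn. Interferon-inducible GTPase, SR factor, tRNA synthetase, proteasome and ribosome biogenesis lists reach furthest to the left, and the Kruppel-like factor list furthest to the right.

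**Figure D4:**
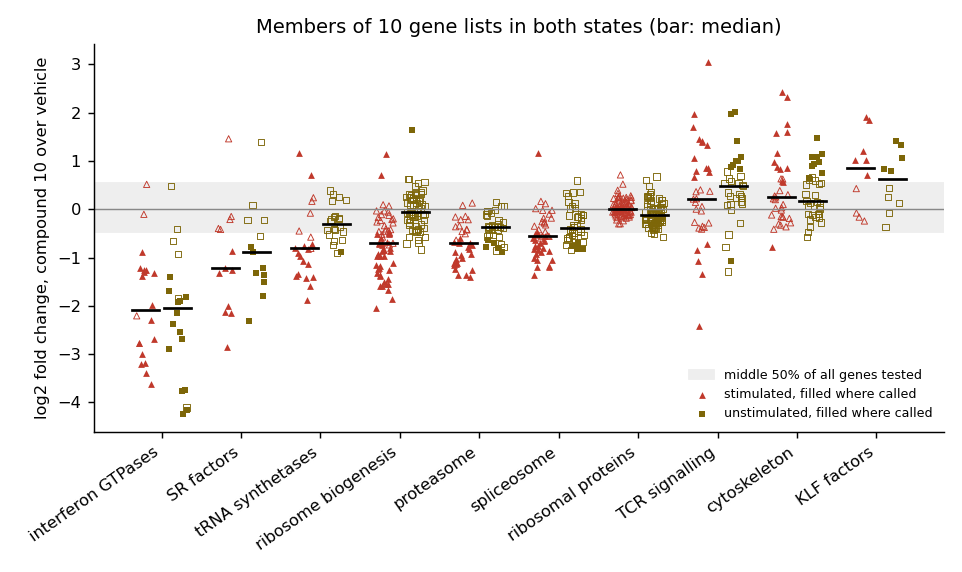
Log2 fold changes of compound 10 over vehicle for every tested member of 10 lists, in stimulated (triangles) and unstimulated (squares) cells, filled where the adjusted p was under 0.05, with a bar at each median and a grey band over the middle 50% of all genes in stimulated cells. GTPase medians are -2.10 and -2.04 in the 2 states, SR factor medians -1.21 and -0.89, ribosome biogenesis sits at -0.71 and -0.06, and the ribosomal protein median is 0.01 in the stimulated cells.

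Genes that carry the T cell receptor signal changed in both directions. The list of the receptor complex and its proximal partners had 13 of 33 members higher and 5 lower, and 8 higher without vehicle library 2. Grap2 (Gads), an adaptor that joins Slp-76 to Lat, was at 4.13 and 4.92 CPM in vehicle and 30.3, 44.5 and 38.1 CPM in compound 10, a change of 3.06 (SE 0.23, adjusted p = 1.59e-05). Plcg1, the phospholipase that makes diacylglycerol, rose from 13.4 and 13.7 CPM to 67.3, 39.1 and 54.0 CPM, a change of 1.98 (SE 0.23, adjusted p = 0.000141). Txk, a tyrosine kinase that can act on Plcg1, was at 31.8 and 25.5 CPM and 79.3, 108 and 91.0 CPM, a change of 1.70 (SE 0.19, adjusted p = 0.000123). Skap1 (1.46, SE 0.19), Fyb (1.38, SE 0.19), Themis (1.42, SE 0.22) and Sh2d2a (1.32, SE 0.22), all adaptor proteins, rose as well.

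Ubash3b (Sts-1), a phosphatase that damps receptor signals, was the member that fell furthest, from 104 and 80.2 CPM to 17.6, 16.7 and 17.4 CPM, a change of -2.41 (SE 0.20, adjusted p = 2.5e-05). The receptor-proximal kinase Fyn fell from 347 and 438 CPM to 177, 184 and 196 CPM, a change of -1.08 (SE 0.17, adjusted p = 0.000812), and the adaptor Sla, which promotes receptor turnover, by -1.33 (SE 0.25). Zap70 (-0.38, SE 0.18), the kinase recruited to the receptor, and Lat (-0.39, SE 0.21), its adaptor substrate, were not called.

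Downstream of the receptor, diacylglycerol activates RasGRP proteins, and diacylglycerol kinases end that signal. Rasgrp2 was at 22.04 and 19.1 CPM in vehicle and 79.3, 90.7 and 85.2 CPM in compound 10, a change of 2.05 (SE 0.17, adjusted p = 2.46e-05). The kinase genes Dgka and Dgkz rose too, Dgka from 49.2 and 43.6 CPM to 250.2, 163 and 238 CPM, a change of 2.23 (SE 0.24, adjusted p = 9.87e-05), and Dgkz by 1.23 (SE 0.18). The ubiquitin ligase Cblb, a brake on T cell activation, fell from 133 and 190.1 CPM to 64.5, 47.2 and 56.0 CPM, a change of -1.53 (SE 0.21, adjusted p = 0.000424). Over this list 6 of 23 members were higher and 4 lower, and 2 were lower without vehicle library 1 and 2 without vehicle library 2.

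Among NFAT, calcineurin and calcium entry genes 7 of 25 were higher and 4 lower. Orai2, a calcium channel subunit, was at 6.06 and 8.15 CPM and 27.8, 25.7 and 26.3 CPM, a change of 1.90 (SE 0.20, adjusted p = 0.000104). Ppp3cc, a catalytic subunit of calcineurin, was at 7.05 and 6.29 CPM and 26.2, 21.9 and 27.0 CPM, a change of 1.90 (SE 0.23, adjusted p = 0.00017), and Rcan3, a calcineurin regulator, rose by 1.73 (SE 0.21). Nfatc1, the NFAT gene that activation induces, was at 386 and 326 CPM and 254, 131 and 224 CPM, a change of -0.81 (SE 0.24, adjusted p = 0.0313), but its adjusted p was 0.181 without vehicle library 1, 0.0718 without vehicle library 2 and 0.0584 without compound library 3. Without vehicle library 1, vehicle library 2 or compound library 3, 4 members were higher, and by limma on log2(TPM + 1) 3 were higher and 0 lower. The lower count was 2 without vehicle library 2.

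Of 19 family members of the partner, AP-1, 2 were higher, a share near that of all genes, and 1 was lower. The higher ones were Junb at 0.87 (SE 0.28, adjusted p = 0.0412) and the basic leucine zipper gene Maff at 0.90 (SE 0.19, adjusted p = 0.00499), and the lower one Batf, a partner of Jun proteins in T cells, at -0.77 (SE 0.18, adjusted p = 0.00754). None of the family was called without vehicle library 2 or by limma on log2(TPM + 1), and Junb missed the threshold under 8 of the 19 alternatives, including vehicle library 1, compound library 2 or 3 or either unstimulated compound library left out. Fos was at 442 and 457 CPM and 581, 528 and 543 CPM without a call, at 0.29 (SE 0.17, adjusted p = 0.263). Jun was not called either, at 0.28 (SE 0.17, adjusted p = 0.273). Of 9 Egr, Nab and Nr4a genes, a set of immediate-early factors and their corepressors, 3 were higher and 1 lower. Egr1 was at 931 and 955 CPM in vehicle and 4981, 3924 and 4259 CPM in compound 10, a change of 2.22 (SE 0.26, adjusted p = 0.000158). Its corepressors Nab1 and Nab2 rose by 1.39 (SE 0.21) and 0.65 (SE 0.19), while Egr2 (-0.26, SE 0.17) was not called. Nr4a3, an orphan nuclear receptor, was the lower one at -0.88 (SE 0.27, adjusted p = 0.0362), and missed the threshold under 9 of the 19 alternatives, with adjusted p-values of 0.344 without vehicle library 2 and 0.0556, 0.0792 and 0.0548 without compound libraries 1, 2 and 3. Nab2 did not pass without vehicle library 2 (adjusted p = 0.229) or compound libraries 2 and 3 (0.0571 and 0.0641).

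In the NF-kB pathway, the subunit gene Nfkb1 fell from 464 and 363 CPM to 142, 165 and 151 CPM, a change of -1.44 (SE 0.21, adjusted p = 0.000555). Target genes moved the other way in part: Birc3, an inhibitor of apoptosis, rose from 62.1 and 72.3 CPM to 175, 176 and 201 CPM, a change of 1.45 (SE 0.19, adjusted p = 0.000339), the adhesion molecule Icam1 from 78.0 and 80.6 CPM to 250.1, 198 and 185 CPM, a change of 1.41 (SE 0.20, adjusted p = 0.000509), and Tnip1, which binds A20, by 1.32 (SE 0.16). In all, 5 of 20 target genes were higher (3 without vehicle library 2) and 2 lower. Of 17 subunit and inhibitor genes 4 were higher, a count of 0 without vehicle library 2 and by limma on log2(TPM + 1), of 1 without vehicle library 1 or compound library 3, and of 2 without compound library 1.

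Kruppel-like factors, several of which mark quiescent T cells, had the highest share of higher genes, 6 of 10 with none lower and a median of 0.86. Klf6 was at 32.1 and 32.6 CPM and 87.2, 149 and 115 CPM, a change of 1.86 (SE 0.27, adjusted p = 0.000553), and Klf7 and Klf4 rose by 1.90 (SE 0.21) and 1.21 (SE 0.18). Klf2, the factor most tied to quiescence and homing, was at 265 and 151 CPM and 197, 186 and 174 CPM and was not called. By limma on log2(TPM + 1) 3 members were higher.

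Among transcription factors of T cell fate 5 of 29 were higher and 5 lower (17.2% each, against 11.7% and 11.4% of all genes tested). Tcf7 (TCF1), a factor of naive and memory T cells, rose from 47.3 and 76.1 CPM to 255, 213 and 232 CPM, a change of 1.92 (SE 0.30, adjusted p = 0.000912). Id3, an inhibitor of E proteins, was at 40.6 and 31.7 CPM and 166, 167 and 139.8 CPM, a change of 2.12 (SE 0.20, adjusted p = 5.1e-05), and Runx3 and Bcl6, the factor of follicular helper cells, rose by 1.62 (SE 0.18) and 1.16 (SE 0.20). Ikzf2 (Helios), found in regulatory T cells, fell from 63.4 and 60.0 CPM to 14.9, 12.8 and 11.2 CPM, a change of -2.25 (SE 0.18, adjusted p = 1.8e-05). Foxp3, the defining factor of regulatory T cells, fell from 17.1 and 20.1 CPM to 8.73, 5.08 and 6.37 CPM, a change of -1.47 (SE 0.32, adjusted p = 0.00638), with an adjusted p of 0.0547 without vehicle library 2. Ikzf3 (Aiolos), Hif1a and Foxo1 changed by -1.61 (SE 0.20), -0.99 (SE 0.23) and -0.88 (SE 0.18), and Hif1a did not pass without vehicle library 1 (adjusted p = 0.0798).

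Several receptors for cytokines and for lymphocyte traffic were higher. Il7r, the receptor of a survival cytokine of resting T cells, was at 15.5 and 16.6 CPM in vehicle and 142, 108 and 186 CPM in compound 10, a change of 3.18 (SE 0.28, adjusted p = 3.8e-05). Il4ra and Il6ra rose by 1.35 (SE 0.18) and 1.15 (SE 0.22). The list of receptor chains had 9 of 27 members higher (4 by limma on log2(TPM + 1)) and 2 lower. S1pr1, needed by T cells to leave lymph nodes, was at 14.3 and 10.4 CPM and 49.0, 59.7 and 59.6 CPM, a change of 2.18 (SE 0.24, adjusted p = 0.000112), and Cxcr5, the follicle homing receptor, at 5.80 and 1.98 CPM and 29.3, 19.0 and 17.4 CPM, a change of 2.48 (SE 0.53, adjusted p = 0.00956). Of 21 homing and adhesion genes 6 were higher and none lower, and the higher count was 3 without vehicle library 2 and 2 by limma on log2(TPM + 1).

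Surface molecules of activated cells did not move as one. Cd69, the early activation marker, was at 3636 and 3129 CPM and 3891, 5427 and 5001 CPM and was not called, at 0.50 (SE 0.23, adjusted p = 0.143). Cd40lg, the helper signal to B cells, was not called at -0.28 (SE 0.21, adjusted p = 0.394). Crtam, a nectin-like adhesion molecule, fell from 55.8 and 31.6 CPM to 11.1, 6.38 and 5.15 CPM, a change of -2.54 (SE 0.31, adjusted p = 0.000241). Tnfsf14 (LIGHT) was at 62.6 and 57.4 CPM and 17.1, 11.3 and 12.3 CPM, a change of -2.14 (SE 0.24, adjusted p = 0.000121), and Tnfrsf9 (4-1BB) changed by -1.20 (SE 0.18). Among inhibitory receptors 5 of 14 were lower and 2 higher, and 3 were lower without vehicle library 1 and 3 by limma on log2(TPM + 1). Cd160 was at 55.5 and 35.3 CPM and 8.65, 6.38 and 6.55 CPM, a change of -2.66 (SE 0.24, adjusted p = 3.43e-05), and Vsir (VISTA) fell from 771 and 599 CPM to 315, 192 and 301 CPM, a change of -1.34 (SE 0.22, adjusted p = 0.00117). Pdcd1 (PD-1) was not called, at -0.31 (SE 0.26).

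Of 22 cyclin, kinase and inhibitor genes of the G1 phase 7 were higher (4 without compound library 3 and by limma on log2(TPM + 1)) and 2 lower, with a median of 0.29. Cdkn1a (p21) was at 550.4 and 288 CPM and 1069.6, 1146 and 1099 CPM, a change of 1.40 (SE 0.28, adjusted p = 0.00363), and Cdkn2d, an inhibitor of the G1 kinases, at 41.9 and 32.4 CPM and 106, 146 and 118 CPM, a change of 1.73 (SE 0.19, adjusted p = 0.000133). The D cyclins split, with Ccnd3 at 1.18 (SE 0.21) and Ccnd2 at -0.85 (SE 0.18). Of 23 p53 target genes 6 were higher and 1, Perp, was lower at -1.55 (SE 0.35), though it missed the threshold without vehicle library 1 (adjusted p = 0.118), while the median was -0.08 and 12 estimates were negative. The higher ones included Gadd45a, from 28.3 and 28.6 CPM to 126, 139 and 104 CPM, a change of 2.11 (SE 0.18, adjusted p = 2.59e-05), and the antiproliferative gene Btg2, from 369.8 and 334 CPM to 1153, 1318 and 1068 CPM, a change of 1.74 (SE 0.19, adjusted p = 0.000118). The survival gene Bcl2 rose by 1.06 (SE 0.22), 1 of 5 higher genes of the 15 tested in its family. That count was 3 without compound library 3 and 1 by limma on log2(TPM + 1).

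Stress and metabolic lists gave smaller and mixed changes. Of 17 integrated stress response genes 3 (17.6%) were higher and 2 (11.8%) lower, against 11.7% and 11.4% of all genes tested. The higher ones included Ddit3 (CHOP) at 1.30 (SE 0.20) and the mTORC1 inhibitor Ddit4 at 1.72 (SE 0.21). The lower ones were the kinase Eif2ak1 at -1.60 (SE 0.18) and Atf6 at -1.68 (SE 0.26). Of 23 NRF2 antioxidant genes 5 were higher and 4 lower, the latter including Srxn1, from 76.9 and 45.4 CPM to 19.6, 15.5 and 14.3 CPM, a change of -1.89 (SE 0.27, adjusted p = 0.000509), and Gclc at -1.25 (SE 0.17). The higher count was 0 without vehicle library 2 and by limma on log2(TPM + 1) and 3 without vehicle library 1 or compound library 1 or 3, and the lower count 2 without vehicle library 1. In glycolysis Pdk1, which keeps pyruvate from the mitochondria, rose by 1.74 (SE 0.25), and 6 of 24 genes were lower against 4 higher. The lower count was 2 on leaving out vehicle library 1, vehicle library 2 or compound library 3 or by limma on log2(TPM + 1) and 3 without compound library 1, and the higher count was 1 without vehicle library 2. Nuclear genes of oxidative phosphorylation had 18 of 61 lower (6 by limma on log2(TPM + 1)), with Ndufs1 at -1.20 (SE 0.20).

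Of 26 genes of adenosine and cyclic AMP signalling 5 (19.2%) were higher and 3 (11.5%) lower, with a median of 0.07. Over all genes tested the shares were 11.7% and 11.4%, so the lower share was near that of all genes. The higher ones were P2rx7, a receptor for ATP, at 2.10 (SE 0.54), the phosphodiesterase genes Pde3b and Pde4d at 1.96 (SE 0.43) and 0.83 (SE 0.23), the adenylyl cyclase gene Adcy7 at 1.46 (SE 0.43) and the transcription factor gene Creb1 at 0.93 (SE 0.19). That count was 1, Creb1, without vehicle library 1, 3 without vehicle library 2 and 2 by limma on log2(TPM + 1), and Adcy7 did not pass without compound library 1 nor Pde4d without compound library 3. The lower ones were the enzymes of adenosine removal Ada at -1.83 (SE 0.28) and Adk at -1.22 (SE 0.18), and the proton sensor Gpr65 at -1.22 (SE 0.25).

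Of 35 regulators of the actin cytoskeleton 12 were higher, 1 was lower (none without vehicle library 1 or compound library 1 or 3) and 22 were not called. The higher count was 6 without vehicle library 2 and 6 by limma on log2(TPM + 1). Spata13, an exchange factor for small GTPases, was at 10.9 and 12.5 CPM and 62.4, 52.2 and 75.2 CPM, a change of 2.43 (SE 0.20, adjusted p = 2.46e-05). The blood cell GTPase Rac2 rose from 202 and 113 CPM to 580.3, 517 and 507 CPM, a change of 1.76 (SE 0.25, adjusted p = 0.000478), and Arhgef1 and Arhgap45 rose by 1.59 (SE 0.23) and 1.60 (SE 0.18).

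The genes with the furthest changes at a mean log2 CPM of at least 4 lay partly outside these lists. Arl5c, a small GTPase of the Arf-like family, was at 15.6 and 11.6 CPM in vehicle and 297, 361 and 403 CPM in compound 10, a change of 4.70 (SE 0.28, adjusted p = 4.4e-06). Plk4, the kinase that starts centriole duplication, rose from 4.23 and 3.36 CPM to 38.7, 39.7 and 47.0 CPM, a change of 3.46 (SE 0.24, adjusted p = 1.16e-05). Nipal1, a magnesium transporter, was at 8.09 and 8.39 CPM and 43.7, 64.6 and 65.7 CPM, a change of 2.81 (SE 0.22, adjusted p = 2.07e-05). All 3 stood at a low level in both vehicle libraries and well above it in each compound 10 library. The rule that chose them required groups without overlap, so this separation adds no support.

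Sit1, an adaptor that interacts with the phosphatase Shp2, rose from 4.49 and 5.28 CPM to 35.3, 37.9 and 29.4 CPM, a change of 2.81 (SE 0.24, adjusted p = 2.5e-05), and Grk6, a kinase that desensitises receptors coupled to G proteins, from 9.77 and 8.93 CPM to 70.4, 61.0 and 52.4 CPM, a change of 2.71 (SE 0.20, adjusted p = 1.3e-05). Its relative Grk2 rose by 2.02 (SE 0.34). Tsc22d3 (GILZ), known as a glucocorticoid-induced gene, was at 21.1 and 20.1 CPM and 86.6, 94.4 and 69.0 CPM, a change of 2.02 (SE 0.19, adjusted p = 5.06e-05), and Tsc22d1 rose by 2.05 (SE 0.24). Other higher genes by the same rule were Tnfaip8l2, a negative regulator of immune signalling, at 2.21 (SE 0.20), Zfp948 at 2.20 (SE 0.21), the selenium carrier Selenop at 2.16 (SE 0.22), Incenp of the chromosomal passenger complex at 2.17 (SE 0.22), and the ubiquitin ligases Rnf125 and Rnf166 at 2.14 (SE 0.20) and 2.14 (SE 0.20).

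Lower genes outside the lists included Penk, which encodes proenkephalin, at 61.0 and 51.9 CPM and 14.5, 12.2 and 8.29 CPM, a change of -2.27 (SE 0.28, adjusted p = 0.000218). Rbm4, an RNA-binding protein, fell from 41.5 and 47.5 CPM to 10.7, 7.30 and 10.7 CPM, a change of -2.22 (SE 0.24, adjusted p = 0.000104), and Utp23, of the small ribosomal subunit processome, from 37.3 and 36.3 CPM to 8.65, 10.3 and 8.99 CPM, a change of -1.98 (SE 0.17, adjusted p = 2.58e-05). Jaml, an adhesion molecule, Plek (pleckstrin), Cdipt, which makes phosphatidylinositol, Nrip3 and Fam83d changed by between -2.03 and -1.89.

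The same comparison in unstimulated cells, which uses other libraries, called 1031 genes (7.36%), 623 higher and 408 lower. Ribosomal RNA genes held 4.72% and 26.3% of the counts in unstimulated vehicle libraries 1 and 2. In unstimulated compound libraries 1 and 2 they held 6.67% and 3.11%. With ribosomal RNA genes left out 1054 genes were called. Of the 3234 genes called in stimulated cells 20.996% were also called in unstimulated cells, which is 65.9% of the unstimulated calls. These were 679 genes, 663 of them changed in the same direction and 16 in opposite directions. Across genes, which are not independent replicates, the 2 sets of log2 fold changes had a Pearson r of 0.407 and a Spearman coefficient of 0.489. Leaving out 1 library at a time, the unstimulated count ran from 174 (without unstimulated compound library 1) to 1457, and it was 263 and 269 without unstimulated vehicle libraries 1 and 2 and 278 without unstimulated compound library 2.

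The difference between the states was called for 144 genes (1.03%), with a more positive effect in stimulated cells in 59 and a more negative one in 85. Of these, 97 were called in stimulated cells alone, 23 in unstimulated cells alone and 24 in both, 16 of them in opposite directions. Il4 changed by -1.61 in unstimulated cells, from 8.35 and 14.5 CPM to 3.44 and 4.04 CPM, a smaller fall than under stimulation (difference -3.20, SE 0.39, adjusted p = 0.00313). Arl5c changed by 1.35 in unstimulated cells (difference 3.35, SE 0.36, adjusted p = 0.00251). Nipal1 and Il16 were at 0.26 and -0.29 there, with differences of 2.55 (SE 0.31) and 2.60 (SE 0.30). Hnrnpu (0.47, difference -1.91, SE 0.24), Ubash3b (0.10, difference -2.51, SE 0.31) and Cd160 (0.76, difference -3.41, SE 0.43) were not called in unstimulated cells.

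Opposite effects were seen in Arhgef3, an exchange factor for small GTPases, which was at 344 and 303 CPM and 141, 93.0 and 134 CPM in stimulated cells, a change of -1.40 (SE 0.21, adjusted p = 0.000588), and at 36.1 and 29.6 CPM in vehicle and 98.6 and 76.4 CPM in compound 10 in unstimulated cells, a change of 1.41 (SE 0.24, adjusted p = 0.0052). The clock output gene Ciart changed by -1.23 (SE 0.18, adjusted p = 0.00053) in stimulated and by 0.98 (SE 0.20, adjusted p = 0.0148) in unstimulated cells. The number of genes with a called difference varied with the setting, from 29 (without unstimulated compound library 1) to 264 (without compound library 2) on leaving out 1 library, and 22 by limma on log2(TPM + 1). It was 42 and 45 without vehicle libraries 1 and 2, 48 without compound library 3, 43 and 52 without unstimulated vehicle libraries 1 and 2, and 42 without unstimulated compound library 2.

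**Figure D5:**
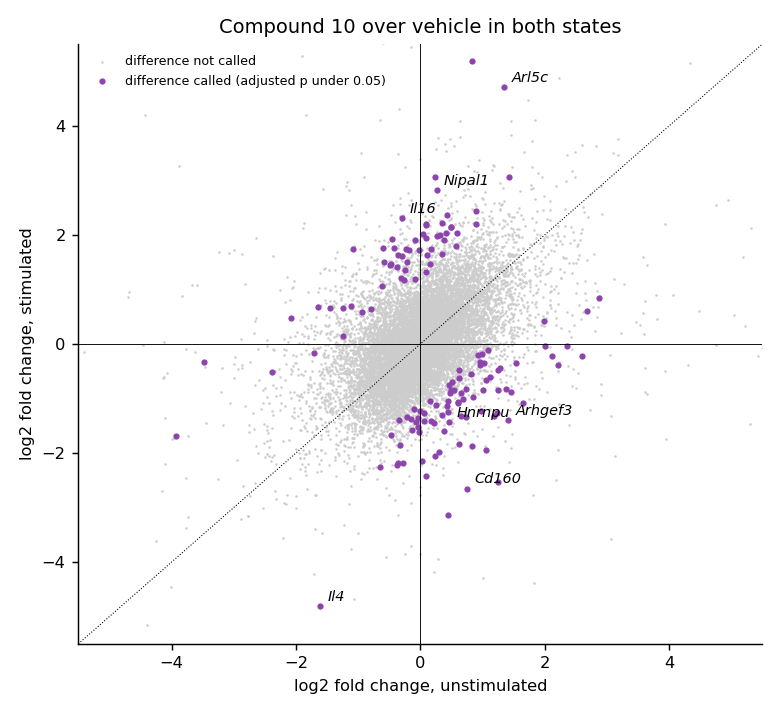
Log2 fold change of compound 10 over vehicle in unstimulated (x axis) and stimulated (y axis) cells for the genes tested, with the 144 genes whose difference was called in purple and a dotted line of equal change. Il4 lies far below the line and Arl5c far above it; 55 genes, 2 of them with a called difference, fall outside the axis limits of 5.5.

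Higher and lower genes were also set side by side by level, length and base composition. Among protein-coding genes the median vehicle level was 3.42 TPM for the 1565 higher, 15.4 TPM for the 1543 lower and 3.01 TPM for the 8265 genes not called. The vehicle libraries are also the base of the fold change that sorted the genes. The gap in vehicle level between higher and lower genes is thus not independent of the sorting. The median length of the most abundant transcript was 2546 bases in higher, 2636 in lower and 2704 in uncalled genes, and its median GC content was 52.2%, 48.5% and 49.97%. These are descriptions of the called genes, and whether level, length or GC content had a part in the calls was not tested. The 10 nuclear protein-coding genes of highest TPM in stimulated vehicle, several of them ribosomal protein genes, were not called, with Srgn (serglycin) at 12127 and 10735 CPM and 7660.1, 6904 and 9654 CPM (-0.50, SE 0.23, adjusted p = 0.14).

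The share of counts on each class of transcript was compared by an exact permutation test over libraries, 2-sided, in which 3 libraries against 2 cannot give a p below 0.1. Protein-coding transcripts held 81.3% and 71.9% of counts in vehicle and 74.8%, 80.0% and 74.9% in compound 10, and retained-intron transcripts 1.68% and 1.96% against 1.61%, 2.22% and 1.69% (exact p = 0.9). The classes outside the common ones held 2.71% and 2.63% in vehicle and 3.59%, 3.65% and 3.89% in compound 10 (exact p = 0.1, the smallest possible), with no overlap. Most of that gap lay in AA474408, an unclassified locus, at 0.328% and 0.310% in vehicle and 0.831%, 0.668% and 1.03% in compound 10, and in Mir6236, at 0.126% and 0.177% against 0.312%, 0.279% and 0.422%.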

How the data were processed

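RNA of splenic CD4+ T cells was sequenced from SMART-seq libraries, per the labels' protocols, and the submitters' processing notes name cutadapt, kallisto and the build mm10, without versions. The deposited tables hold, per the file headers, each transcript's estimated count, its TPM and its effective length. Estimated counts were summed per gene through GENCODE M21 (108214 of 109617 transcripts matched by identifier, 63964 with the version) and rounded; unmatched transcripts held 0.542% to 0.829% of counts and were left out. Genes were tested with edgeR 4.0.16 (R 4.3.3) by the quasi-likelihood test on all 9 libraries with 1 coefficient per group, TMM scaling and edgeR's filter on low counts. Benjamini-Hochberg adjustment ran over all 14011 genes tested, with a threshold of 0.05, and standard errors come from the test statistic. The median SE of a log2 fold change was 0.30 for the stimulated contrast, at a common biological variation of 0.244. The fit was also run on simulated counts of independent libraries with far fewer changed genes than were called here. That setting differs from these data and does not measure their error rate.

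Gene lists and named genes were chosen with earlier results of these data known. Genes named were the 30 highest and 30 lowest log2 fold changes among called genes at a mean log2 CPM of at least 4 without overlap between groups, list members, the 15 genes of smallest p for the difference between the states, and the 10 nuclear protein-coding genes of highest TPM; predicted genes, receptor segments and pseudogenes were left out of those chosen by fold change or difference. Some genes that the rule names are not reported here. AA474408 and Mir6236 were chosen after their values were seen. Alternatives were other scalings and filters, DESeq2 1.42.0, limma 3.58.1 on log2(TPM + 1), the compared groups alone, the replicate number as a term, effective length as an offset, ribosomal RNA genes left out, and each library left out. Promoters are from RefSeq in GRCm38.p6. Depth (10669821 to 21852830 counts per library) limits genes of low count.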

Additional observations from a re-analysis of the deposited data

Results flagged for a closer look

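The effect of compound 10 differed between stimulated and unstimulated cells by edgeR's test of the difference for the genes given here, with adjusted p-values from 0.00202 to 0.0429; each value is the log2 fold change in stimulated cells minus that in unstimulated cells. No cause was tested. A difference was called for 144 genes in the main fit and for 22 by limma on log2(TPM + 1). That count was 48 without compound library 3, 264 without compound library 2 and 430 by DESeq2. Levels of Tnfsf14 without stimulation were low, at 1.37 and 1.36 CPM in vehicle and 0.909 and 1.83 CPM in compound 10.

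A more negative effect under stimulation was found for secreted factors and surface molecules: Il4 -3.20, Il17f -3.57, Xcl1 -3.003, Tnfsf14 -2.17, Il2ra -1.91, Cd160 -3.41, Crtam -3.78 and Vsir -2.08. The same held for ribosome biogenesis genes, Noc4l at -1.20, Bysl at -1.52, Pes1 at -1.37, Gnl2 at -1.45, Polr1b at -2.29 and Fbl at -1.22. It also held for Hnrnpu at -1.91, Syncrip at -1.21, Rbm4 at -1.85, Psma4 at -1.05 and Pfdn6 at -1.82. Among regulators, Ubash3b stood at -2.51, Ikzf2 at -1.59, Ikzf3 at -1.58, Ccnd2 at -1.34, Arhgef3 at -2.82, Ciart at -2.20 and the sterol enzyme gene Cyp51 at -1.65.

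The exchange factor Net1 (-2.41) and the calcium sensor Stim2 (-1.88) differed as well; they rose in unstimulated cells, by 2.36 (SE 0.19) and 1.53 (SE 0.18), and were not called in stimulated cells.

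A more positive effect under stimulation was found for signalling genes, with Grap2 at 1.64, Plcg1 at 1.71, Rcan3 at 1.75, Tnip1 at 1.23, Birc3 at 1.94, Icam1 at 1.78, Tnfaip8l2 at 1.31, S1pr1 at 2.09, Il16 at 2.60 and Bcl2 at 1.67. Cxcl10 (2.23) fell in both states, by a log2 fold change of -1.69 (SE 0.28) in stimulated and -3.92 (SE 0.36) in unstimulated cells. A more positive effect was also found for Klf7 at 1.99, Btg2 at 1.97, Tsc22d3 at 1.97, Zfp948 at 2.11, Ifi206 at 1.94, Ifi208 at 1.98, Ifi209 (not called in stimulated cells) at 1.39, Rnf125 at 1.65, Rnf166 at 1.66, Spata13 at 1.54, Nipal1 at 2.55, Arl5c at 3.35 and the small GTPase Arl4c at 1.90. Faf1 (1.80) and Tnfrsf26 (2.32) had effects of opposite sign, at 0.69 (SE 0.15) and 0.67 (SE 0.18) in stimulated and -1.11 (SE 0.17) and -1.64 (SE 0.20) in unstimulated cells. The stimulated changes of Faf1 and Tnfrsf26 did not pass by limma on log2(TPM + 1) (adjusted p = 0.346 and 0.227), and that of Tnfrsf26 did not without vehicle library 2 (adjusted p = 0.131) or compound library 1 (adjusted p = 0.0552).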

How the results depend on the processing

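No gene called in stimulated cells was called in the opposite direction under any of the 19 alternatives run. Of the 3234 calls, from 34.9% (limma on log2(TPM + 1)) to 98.0% (median-of-ratios scaling) were also called in the same direction, and 60.0% and 56.5% were without vehicle libraries 1 and 2. The counts of higher and lower genes stayed within 1.5 times under every alternative except limma (557 and 638) and the vehicle libraries left out. Leaving out each library in turn gave 876 to 1538 higher genes, 975 to 1637 lower genes, 1468 to 1807 genes changed at least 2-fold, 174 to 1457 genes in unstimulated cells and 29 to 264 genes with a difference between the states. By limma 902 genes changed at least 2-fold, 231 in unstimulated cells and 22 had a difference. Without a filter on low counts the unstimulated count was 1569 and the difference count 512. DESeq2 called a difference for 430 genes, and effective length as an offset gave 83; a fit of the compared groups alone gives no such difference. With a replicate block the counts were 1400 higher, 1279 lower and 43 for the difference, and no called gene changed direction. Libraries of the same number correlated at -0.10 to 0.33 in their deviations from the group means, over 0.1 in 3 of 6 pairs of groups, and the third principal component put number 1 below number 2 in all 4 groups; the labels give no pairing, and the numbers were not taken as one. The cause of these shifts was not tested; leaving out a library also leaves fewer samples, and where 1 sample stayed in a group it was assumed to vary like the others.

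Of 200 called genes named in the text, 173 kept call and direction under every alternative, and the others kept direction. Estimates near 0 that were not called changed sign: Net1 to 0.042 with upper-quartile scaling, Gbp10 to -0.12 by limma, -0.21 with effective length as an offset and -0.50 without compound library 1 (up to 0.97 without compound library 3), Gm4951 to 0.53 without vehicle library 1 (-0.52 without vehicle library 2), Ifi209 to -0.00812 without vehicle library 1 (up to 0.31 without vehicle library 2) and Klf2 to 0.31 without vehicle library 1 (-0.52 without vehicle library 2). Of the 57 list counts of at least 3, 18 moved by over 1.5 times without vehicle library 1, 29 without vehicle library 2, 9, 4 and 14 without compound libraries 1, 2 and 3, and 43 by limma. Upper-quartile scaling moved the median of all genes by 0.09 on the log2 scale.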

Other observations

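A few further gene groups were measured. Zfp36 (tristetraprolin), which directs the decay of cytokine mRNAs, was at 325 and 292 CPM in stimulated vehicle and 776, 628 and 607 CPM in compound 10, a change of 1.12 (SE 0.20, adjusted p = 0.00186). Of 20 mRNA decay genes 2 (10%) were higher and 1 (5%) was lower, shares no larger than the 11.7% and 11.4% of all genes tested. Oaz1, the antizyme that limits polyamine synthesis, fell from 2536 and 2369 CPM to 1315, 1423 and 1399 CPM, a change of -0.83 (SE 0.18, adjusted p = 0.00643), and Psph, an enzyme of serine synthesis, rose by 1.12 (SE 0.18). Cyp51, an enzyme of sterol synthesis, was at 133 and 135 CPM and 62.3, 44.9 and 56.6 CPM, a change of -1.30 (SE 0.18, adjusted p = 0.00047).

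Mcoln1, a calcium channel of the lysosome, rose by 1.29 (SE 0.22, adjusted p = 0.00137), and 8 of 31 lysosome and autophagy genes were higher and 2 lower. The higher count was 2 without vehicle library 2, 5 without compound library 1 or 3 and 1 by limma on log2(TPM + 1), and the lower count was 0 on leaving out vehicle library 1 or vehicle library 2. Cdc25a, a phosphatase that drives entry into S phase, changed by -1.13 (SE 0.23, adjusted p = 0.00404).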
